A study of Mus with 10 samples.

Results

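Canonical Wnt signaling begins when a Wnt ligand binds a Frizzled receptor together with the co-receptor LRP5 or LRP6. Without ligand, the scaffolds Axin and APC hold β-catenin in a complex that marks it for destruction. With ligand, Axin is drawn to the co-receptor, β-catenin accumulates, and it enters the nucleus to bind transcription factors of the TCF/LEF family. In lymphocytes, TCF-1 (encoded by *Tcf7*) and LEF-1 are also known as factors of T cell and innate lymphoid cell development.

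The 8 genes described here were the co-receptors *Lrp5* and *Lrp6*, the TCF/LEF factors *Tcf7*, *Lef1* and *Tcf7l2*, the scaffolds *Axin1* and *Axin2*, and *Apc*. They were chosen by name from the 24564 genes of the deposited table, with the difference between the genotypes in these same libraries already known. The difference of each member between the genotypes is therefore given as a description, with no p-value. All 8 were found in the table, and 7 of them passed the filter on low counts, which kept 11463 genes. *Tcf7l2* did not pass.

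RNA was sequenced from type 1 innate lymphoid cells (ILC1s), tissue-resident lymphocytes of the liver, sorted from mice of 6 to 8 weeks of either sex on a C57BL/6 background. There were 5 libraries from *Ncr1+/+* mice and 5 from *Ncr1gfp/gfp* mice, in which *gfp* replaces *Ncr1*, the gene of the activating receptor NKp46, in every cell. The gate differed between the genotypes, because *Ncr1+/+* ILC1s were picked by NKp46 staining and *Ncr1gfp/gfp* ILC1s by GFP. Both gates also required NK1.1 and CD49a and left out CD49b-positive cells. The study speaks of RNA pools but does not state how many mice went into a library, so a p-value measures the spread between these libraries, which may be technical.

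Total counts were between 15796253 and 21975879 in *Ncr1gfp/gfp* libraries and between 17996935 and 22623133 in *Ncr1+/+* libraries. The targeted gene *Ncr1* was at 141 to 356 CPM (read counts scaled to library size by TMM normalization) in *Ncr1gfp/gfp* ILC1s and at 1913 to 2144 CPM in *Ncr1+/+* ILC1s. The summed CPM of 7 ILC1 markers was 4509 to 4723 in *Ncr1gfp/gfp* and 4462 to 4665 in *Ncr1+/+* libraries. These markers include the gate genes *Klrb1c* (NK1.1) and *Itga1* (CD49a), so the sum is no independent check of the label. Within the sum, *Itga1* was higher in every *Ncr1gfp/gfp* library, at 971 ± 35.1 against 779 ± 30.4 CPM (SD). The means of *Cxcr6* and *Tbx21* were lower, at 408 and 414 CPM against 465 and 452 CPM, with overlap. Hepatocyte markers stood apart in *Ncr1gfp/gfp* replicate 3 and in *Ncr1+/+* replicate 1, with summed values of 59.2 and 32.1 CPM against at most 5.90 CPM in the other libraries.

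Means are given with their SD over 5 libraries of a genotype. Among the members, *Lrp5*, *Tcf7* and *Lef1* had lower mean levels in *Ncr1gfp/gfp* than in *Ncr1+/+* ILC1s, at 64.1%, 64.8% and 67.8% of the *Ncr1+/+* mean. The means of *Lrp6*, *Axin1*, *Axin2* and *Apc* were at 98.9%, 98.5%, 101% and 105%. A gene was called when its adjusted p-value was under 0.05 and its fold change was above 1.5 or below 0.7 (edgeR, quasi-likelihood, adjusted by Benjamini-Hochberg over 11463 genes). By this rule 2 members, *Lrp5* and *Tcf7*, were called lower and 0 were called higher. At an unadjusted p under 0.05, 3 members were lower and 0 higher, against 5.91% and 5.46% of all tested genes, and DESeq2 called *Lrp5* and *Lef1* lower. Over all tested genes, 0.733% were called in either direction and 0.532% were called lower. In 2 members, *Lrp5* and *Lef1*, every *Ncr1gfp/gfp* library lay below every *Ncr1+/+* library, as did 1.82% of all tested genes. The median log2 fold change was -0.02 over the 7 members that passed the filter and 0.0027 over all tested genes. Because these counts come from the contrast that was known when the members were chosen, they carry no further weight. In bulk RNA, fewer cells with a transcript and less of the transcript in each cell cannot be told apart.

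**Figure D1:**
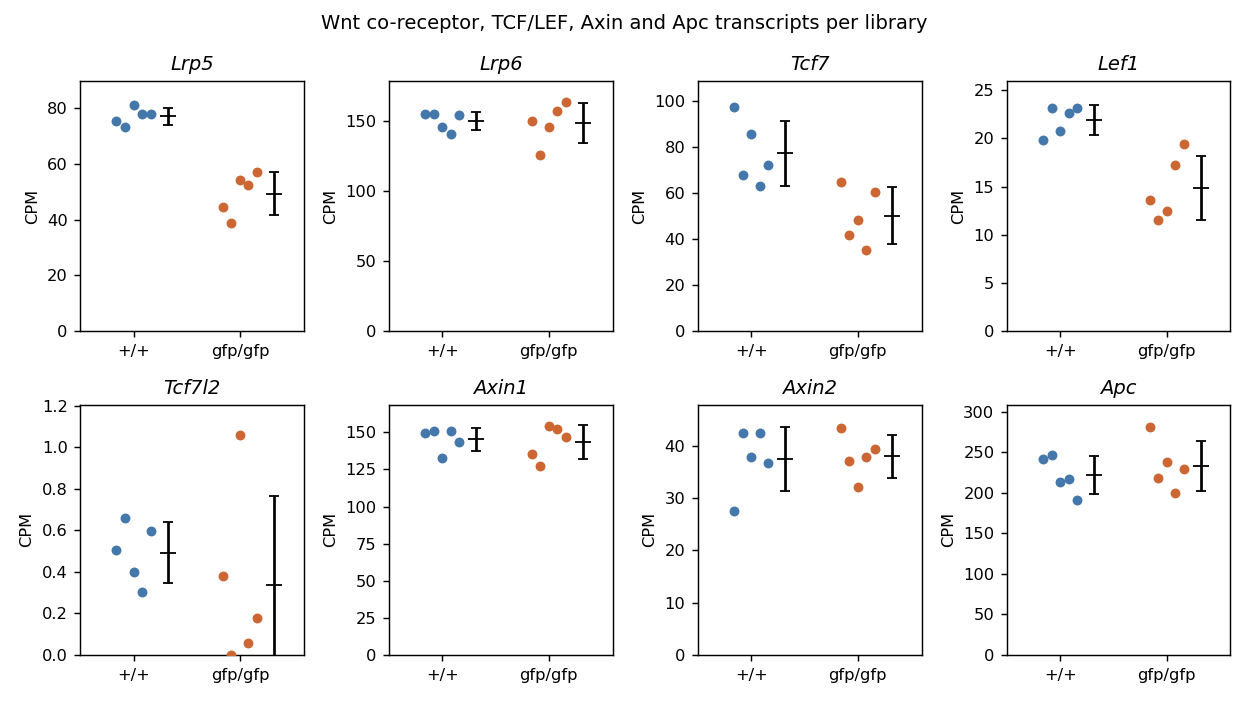
CPM of each of the 8 members (vertical axes, each from 0) in *Ncr1+/+* (blue) and *Ncr1gfp/gfp* (orange) ILC1 libraries, 1 point per library, with the mean and SD (n = 5) as a black bar beside the points, cut at 0 for *Tcf7l2*. The *Lrp5* and *Lef1* points of the genotypes do not overlap, those of *Tcf7* overlap between 63.1 and 64.6 CPM, and those of *Lrp6*, *Axin1*, *Axin2* and *Apc* lie over the same range.

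*Lrp5* encodes a co-receptor that is phosphorylated on its cytoplasmic tail when Wnt binds, and then recruits Axin. Its row in the table gives chromosome 19 (minus strand, 3584825 to 3686564), and its exons total 5172 bases. The table names no genome build for its coordinates. *Lrp5* was at 44.6, 38.7, 54.2, 52.6 and 56.9 CPM in *Ncr1gfp/gfp* replicates 1 to 5. It was at 75.3, 73.2, 81.0, 77.8 and 77.9 CPM in *Ncr1+/+* replicates 1 to 5. The highest *Ncr1gfp/gfp* library was well below the lowest *Ncr1+/+* library. The means were 49.4 ± 7.54 and 77.0 ± 2.95 CPM (SD), a log2 fold change of -0.64 with a standard error (SE) of 0.09. Of the 18 other settings tried, all 18 kept the call of *Lrp5*, and with each library left out in turn its log2 fold change lay between -0.70 and -0.56. The setting with no fold threshold only relaxes the rule, so a call cannot be lost there. All settings reuse the contrast that was known when the members were chosen, so this count carries no further weight.

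*Lrp6* encodes the close relative of LRP5 with the same role at the membrane. The deposited table places it on chromosome 6 (minus strand, 134396496 to 134516931), and its exons total 9366 bases. *Lrp6* was at 150.4, 126, 146, 158 and 164 CPM in *Ncr1gfp/gfp* replicates 1 to 5 and at 155, 155, 146, 141 and 154 CPM in *Ncr1+/+* replicates 1 to 5. The *Ncr1+/+* values all lay within the range of the *Ncr1gfp/gfp* values. The log2 fold change was -0.02, with a 95% interval from -0.16 to 0.13.

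The make-up of the co-receptor pair differed between the genotypes accordingly. Per kilobase of exon, *Lrp5* made up 34.9%, 35.7%, 40.2%, 37.7% and 38.6% of the sum of *Lrp5* and *Lrp6* in *Ncr1gfp/gfp* replicates 1 to 5. In *Ncr1+/+* replicates 1 to 5 its share was 46.7%, 46.0%, 50.1%, 49.9% and 47.8%. This share is a ratio within a library and does not depend on how libraries are scaled to each other. The shares did not overlap, and their means were 37.4 ± 2.14% and 48.1 ± 1.83% (SD). Because *Lrp6* hardly differed, the share restates the difference of *Lrp5*, known when the members were chosen, and carries no further weight. In *Ncr1+/+* ILC1s the co-receptors were thus at nearly equal levels per kilobase, and in *Ncr1gfp/gfp* ILC1s *Lrp6* was the more abundant.

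**Figure D2:**
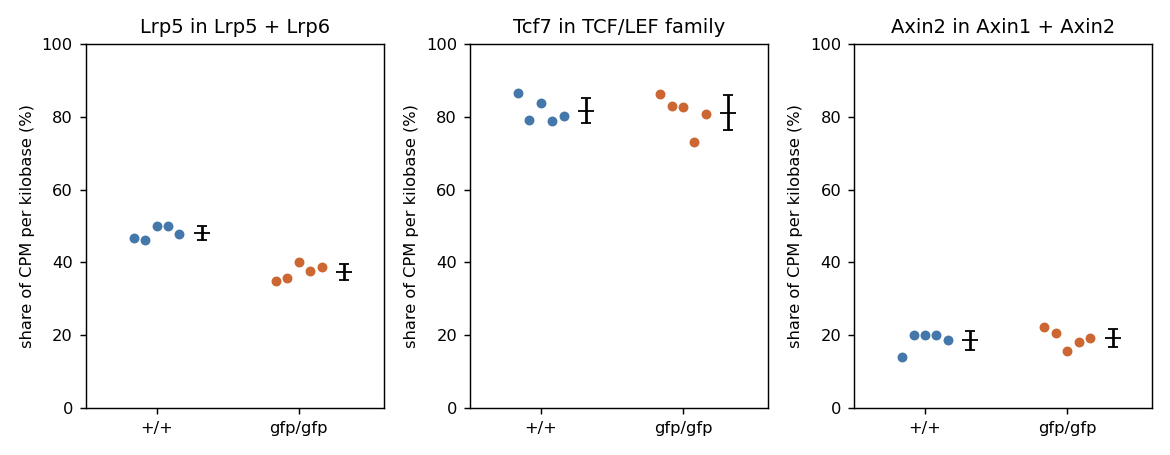
Shares within each library (vertical axes, percent of CPM per kilobase of exon, from 0 to 100) of *Lrp5* in the sum of both co-receptors, of *Tcf7* in the TCF/LEF family and of *Axin2* in the sum of both Axins, 1 point per library with the mean and SD (n = 5) in black. The *Lrp5* share is 34.9% to 40.2% in *Ncr1gfp/gfp* and 46.0% to 50.1% in *Ncr1+/+* libraries, whereas the *Tcf7* and *Axin2* shares overlap.

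*Tcf7* encodes TCF-1, which binds DNA beside β-catenin and also acts without it. Its row in the table gives chromosome 11 (minus strand, 52065785 to 52096516), and its exons total 2737 bases. *Tcf7* was at 64.6, 41.9, 48.3, 35.0 and 60.5 CPM in *Ncr1gfp/gfp* replicates 1 to 5 and at 97.3, 67.9, 85.6, 63.1 and 71.9 CPM in *Ncr1+/+* replicates 1 to 5. The highest *Ncr1gfp/gfp* library, replicate 1, was above the lowest *Ncr1+/+* library, replicate 4, and the other 4 *Ncr1gfp/gfp* libraries lay below all *Ncr1+/+* libraries. The means were 50.1 ± 12.4 and 77.2 ± 14.0 CPM (SD), a log2 fold change of -0.63 (SE 0.14). *Tcf7* was the most variable tested member within each genotype, with a coefficient of variation of 24.8% in *Ncr1gfp/gfp* and 18.2% in *Ncr1+/+* ILC1s.

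The call of *Tcf7* rested on single libraries. Without *Ncr1gfp/gfp* replicate 2, 3 or 4, the log2 fold change was -0.57, -0.61 and -0.52, and *Tcf7* was no longer called. The same held without *Ncr1+/+* replicate 1 or 3, at -0.53 and -0.59. It was also not called by DESeq2, at -0.62. The value was negative in all 17 alternatives that give a fold change.

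*Lef1* encodes the TCF/LEF family member most often described beside TCF-1 in lymphocytes. The deposited table places it on chromosome 3 (plus strand, 130813215 to 130927275), and its exons total 3687 bases. *Lef1* was at 13.6, 11.6, 12.4, 17.2 and 19.4 CPM in *Ncr1gfp/gfp* replicates 1 to 5 and at 19.8, 23.1, 20.7, 22.7 and 23.1 CPM in *Ncr1+/+* replicates 1 to 5. The genotypes did not overlap, but the highest *Ncr1gfp/gfp* library came close to the lowest *Ncr1+/+* library. The means were 14.8 ± 3.34 and 21.9 ± 1.53 CPM (SD), with a log2 fold change of -0.56 (SE 0.14). *Lef1* missed the call and was called in 5 of the 18 other settings, among them without *Ncr1gfp/gfp* replicate 5, where the log2 fold change was -0.68.

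*Tcf7* and *Lef1* were low together in some *Ncr1gfp/gfp* libraries and not in others. Replicate 2 had the lowest *Lef1* and the second lowest *Tcf7* of its genotype, and replicate 3 was below the mean of its genotype in both. *Ncr1gfp/gfp* replicate 4 had the lowest *Tcf7* and the second highest *Lef1* of its genotype. *Ncr1gfp/gfp* replicate 1 had the highest *Tcf7* and a *Lef1* value of 13.6 CPM, below the mean of its genotype.

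*Tcf7l2* encodes TCF-4, a family member best known from the intestinal epithelium. Its row in the table gives chromosome 19 (plus strand, 55816300 to 56008145), and its exons total 4626 bases. It had 6, 0, 20, 1 and 3 counts in *Ncr1gfp/gfp* replicates 1 to 5 and 9, 15, 8, 6 and 11 counts in *Ncr1+/+* replicates 1 to 5. The 0 counts of *Ncr1gfp/gfp* replicate 2 allow up to 0.137 CPM, taking 3 counts as the limit and counting error alone. The highest and the lowest libraries were both *Ncr1gfp/gfp*, and the transcript was too scarce at this depth for a difference to be shown. When no filter was applied, its log2 fold change was -0.55 with an SE of 1.06.

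The levels of all 4 TCF/LEF genes, *Tcf7l1* with the 3 members, were also summed per kilobase of exon. The sum was 22.4 ± 4.76 CPM per kilobase in *Ncr1gfp/gfp* and 34.4 ± 4.77 CPM per kilobase in *Ncr1+/+* ILC1s (SD), and the libraries did not overlap, at 17.5 to 27.4 and 29.3 to 41.0. *Tcf7* and *Lef1* made up nearly all of the sum, so it restates their known differences and carries no further weight. By itself *Tcf7* overlapped, and 1.82% of all tested genes had every *Ncr1gfp/gfp* library below every *Ncr1+/+* library. The shares within this sum overlapped between the genotypes. *Tcf7* made up 81.2 ± 4.89% and 81.7 ± 3.40% of it, and *Lef1* 18.5 ± 5.08% and 17.6 ± 3.41%. *Tcf7l1* and *Tcf7l2* together made up 0.387% and 0.694%.

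*Axin1* encodes the scaffold that limits assembly of the destruction complex. The deposited table places it on chromosome 17 (plus strand, 26275631 to 26332756), and its exons total 3779 bases. *Axin1* was between 128 and 154 CPM in *Ncr1gfp/gfp* and between 133 and 151 CPM in *Ncr1+/+* libraries. The ranges overlapped almost fully, the means were 143 ± 11.4 and 145 ± 7.68 CPM (SD), and the log2 fold change was -0.02 with a 95% interval from -0.16 to 0.12.

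*Axin2* encodes the related scaffold and is a widely used target gene of β-catenin with TCF. Its row in the table gives chromosome 11 (plus strand, 108781663 to 108812095), and its exons total 4258 bases. *Axin2* was at 43.4, 37.0, 32.1, 37.9 and 39.3 CPM in *Ncr1gfp/gfp* replicates 1 to 5 and at 27.6, 42.4, 37.7, 42.5 and 36.7 CPM in *Ncr1+/+* replicates 1 to 5. The genotypes overlapped, and both the lowest and the second highest of the 10 values were *Ncr1+/+*. The log2 fold change was 0.02, with a 95% interval from -0.22 to 0.26, and it was -0.07 without *Ncr1+/+* replicate 1 and -0.03 without *Ncr1gfp/gfp* replicate 1. *Axin2* made up 19.1 ± 2.47% of the summed Axin level per kilobase in *Ncr1gfp/gfp* and 18.5 ± 2.58% in *Ncr1+/+* ILC1s (SD).

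*Apc* encodes the large scaffold that presents β-catenin to the kinases of the complex. The deposited table places it on chromosome 18 (plus strand, 34380638 to 34481844), and its exons total 12449 bases. *Apc* was between 199 and 281 CPM in *Ncr1gfp/gfp* and between 191 and 247 CPM in *Ncr1+/+* libraries, and the ranges overlapped. The log2 fold change was 0.07, with a 95% interval from -0.10 to 0.24. *Gm10548* overlaps *Apc* on the opposite strand in the table and had at most 101 counts in any library.

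The order of the members' levels did not enter their choice, and it was tested. It was taken from the same libraries and pools both genotypes, so pairs with *Lrp5*, *Tcf7* or *Lef1* also carry their genotype difference. Among the neighbouring pairs, only that of *Apc* and *Lrp6* holds none of these genes. Levels of different genes were compared per kilobase of exon, as ratios within each of the 10 libraries. *Axin1* was highest at 38.2 CPM per kilobase, above 84.3% of tested genes, followed by *Tcf7* at 23.2, *Apc* at 18.3, *Lrp6* at 16.0, *Lrp5* at 12.2, *Axin2* at 8.85 and *Lef1* at 4.98. *Tcf7l2* was last at 0.0896 CPM per kilobase. Of the 7 pairs of neighbours in this order, 6 differed over the 10 pooled libraries (two-sided exact sign-flip permutation test, Benjamini-Hochberg over 7 pairs). *Tcf7* and *Apc* did not pass, with *Tcf7* higher in 7 of 10 libraries and a mean log2 ratio of 0.29 ± 0.44 (SD, exact permutation test, adjusted p = 0.0684).

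*Axin1* was above *Tcf7* in 10 of 10 libraries, by a log2 ratio of 0.77 ± 0.47 (SD, exact permutation test, adjusted p = 0.00456). *Lrp6* was above *Lrp5* in 9 of 10 libraries, by 0.43 ± 0.35 on the log2 scale (SD, exact permutation test, adjusted p = 0.0103). *Axin2* was above *Lef1* in 10 of 10 libraries, by 0.86 ± 0.40 (SD, exact permutation test, adjusted p = 0.00456). The smallest unadjusted p that 10 libraries allow is 0.00195. Both genotypes enter this order, and 5 libraries of 1 genotype cannot reach a two-sided p under 0.0625 in this exact permutation test, so the genotypes are described apart without a test. *Lrp6* was above *Lrp5* by a log2 ratio of 0.74 ± 0.13 (SD) in *Ncr1gfp/gfp* and of 0.11 ± 0.11 in *Ncr1+/+* ILC1s. *Lrp5* was above *Axin2* in 5 of 5 *Ncr1+/+* libraries, by 0.78 ± 0.26 (SD), but in 3 of 5 *Ncr1gfp/gfp* libraries, by 0.09 ± 0.31. For *Lrp6* over *Lrp5* and for *Lrp5* over *Axin2*, the pooled ratio thus came mostly from 1 genotype. *Tcf7* was above *Apc* in 5 of 5 *Ncr1+/+* and in 2 of 5 *Ncr1gfp/gfp* libraries. In *Ncr1gfp/gfp* ILC1s alone the mean of *Apc*, 18.7 ± 2.45 CPM per kilobase, was slightly above that of *Tcf7*, 18.3 ± 4.54. Total exon length counts every annotated exon, so a gene used mainly as a short isoform would be placed too low.

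**Figure D3:**
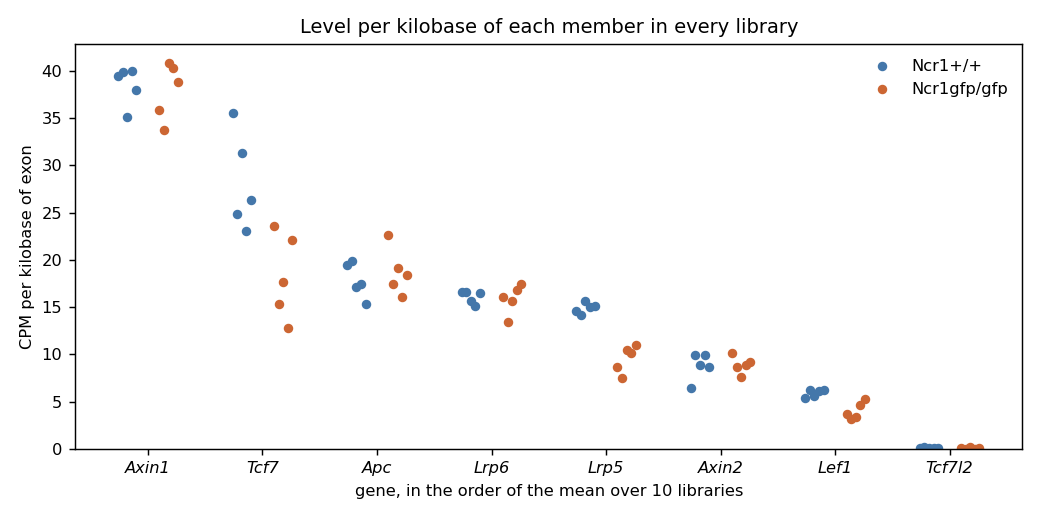
CPM per kilobase of exon (vertical axis, linear, from 0) of each member in every *Ncr1+/+* (blue) and *Ncr1gfp/gfp* (orange) library, with genes ordered by their mean over 10 libraries. *Axin1* is highest at 38.2, *Tcf7* spans 12.8 to 35.6, and *Tcf7l2* stays at or below 0.229.

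The other genes of the pathway were taken from lists ordered by role, 104 genes in all. Of these, 53 were tested and 51 were too low to test. Among the 53, 1 was called lower, 0 were called higher and 52 were not called (edgeR quasi-likelihood test), where 0.532% of all tested genes were called lower. Their median log2 fold change was 0.0058, and 47.2% had a negative value, against 49.3% of all tested genes. At an unadjusted p under 0.05, 8 of them were lower and 3 higher, against 5.91% and 5.46% of all tested genes, and 3 of the lower and 2 of the higher ones were target genes. DESeq2 called the same single gene as edgeR. In 4 of the 53 genes every *Ncr1gfp/gfp* library was below every *Ncr1+/+* library, against 1.82% of all tested genes, and in 1 every one was above, against 1.28%. The 4 were *Wls*, *Bcl9l*, *Tle1* and *Cd44*, and the 1 was *Tnks2*.

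The called gene was *Wls*, which encodes Wntless, the carrier that Wnt proteins need to leave the cell. *Wls* was at 50.6, 62.4, 71.6, 63.9 and 65.4 CPM in *Ncr1gfp/gfp* replicates 1 to 5 and at 97.9, 89.2, 98.8, 86.9 and 87.4 CPM in *Ncr1+/+* replicates 1 to 5. All 5 *Ncr1gfp/gfp* libraries were below all *Ncr1+/+* libraries. *Wls* fell by 0.55 on the log2 scale (SE 0.08, edgeR quasi-likelihood test, Benjamini-Hochberg adjusted p = 0.00116). Without *Ncr1gfp/gfp* replicate 1 its log2 fold change was -0.48, short of the fold that a call needs.

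Of the 19 Wnt ligands, 2 were tested and 0 called. The higher of them, *Wnt10b*, was at 3.96 ± 1.26 CPM in *Ncr1gfp/gfp* and 3.84 ± 0.436 CPM in *Ncr1+/+* ILC1s (SD). *Porcn*, the enzyme that attaches the lipid to Wnt proteins, had 0 counts in all libraries. Of the 13 secreted Wnt inhibitors, 0 were high enough to test.

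Of the 14 Frizzled and other Wnt receptors, 6 were tested and 0 called. *Fzd5* was by far the highest, at 103 ± 6.36 CPM in *Ncr1gfp/gfp* and 98.5 ± 4.18 CPM in *Ncr1+/+* ILC1s (SD). *Fzd6* was at 5.34 ± 0.982 and 8.65 ± 2.11 CPM, a log2 fold change of -0.70 that was not called (edgeR quasi-likelihood test, adjusted p = 0.147). Of the 11 genes of receptor turnover, 5 were tested and 0 called. *Rnf43*, a ubiquitin ligase that removes Frizzled from the surface, was at 119 ± 12.0 and 118 ± 9.11 CPM (SD).

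All 3 Dishevelled genes, whose products carry the signal from Frizzled to Axin, were tested and 0 were called. *Dvl1* had the highest level, at 71.9 ± 5.81 CPM in *Ncr1gfp/gfp* and 76.7 ± 8.47 CPM in *Ncr1+/+* ILC1s (SD). Of the 15 further genes of the destruction complex, 14 were tested and 0 called, with a median log2 fold change of 0.05. *Tnks2*, a tankyrase that marks Axin for degradation, was at 478 ± 5.99 and 434 ± 13.0 CPM (SD). Its *Ncr1gfp/gfp* values were all above its *Ncr1+/+* values, yet its log2 fold change of 0.14 was not called (edgeR quasi-likelihood test, adjusted p = 0.161).

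Of the 16 genes for β-catenin and its nuclear partners, 14 were tested and 0 called. The β-catenin coactivator *Bcl9l* was at 85.8 ± 5.58 CPM in *Ncr1gfp/gfp* and 106 ± 11.1 CPM in *Ncr1+/+* ILC1s (SD), a log2 fold change of -0.30 that was not called (edgeR quasi-likelihood test, Benjamini-Hochberg adjusted p = 0.056). The corepressor *Tle1* was scarce, at 1.02 ± 0.361 and 2.35 ± 0.801 CPM (SD), with a log2 fold change of -1.19 that was not called (edgeR quasi-likelihood test, Benjamini-Hochberg adjusted p = 0.274). *Ctnnb1*, the gene of β-catenin, had a log2 fold change of 0.04, and the related corepressor *Aes* was at 572 ± 27.1 and 559 ± 25.8 CPM (SD). Of the 11 target genes, 8 were tested and 0 called, with a median log2 fold change of -0.26. The cyclin gene *Ccnd2* was at 1706 ± 244 CPM in *Ncr1gfp/gfp* and 1455 ± 94.2 CPM in *Ncr1+/+* ILC1s (SD), a log2 fold change of 0.23 that was not called (edgeR quasi-likelihood test, adjusted p = 0.131). The adhesion receptor gene *Cd44* had the opposite sign, at 486 ± 37.9 and 565 ± 25.7 CPM and a log2 fold change of -0.22, and was not called either (edgeR quasi-likelihood test, adjusted p = 0.0527).

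**Figure D4:**
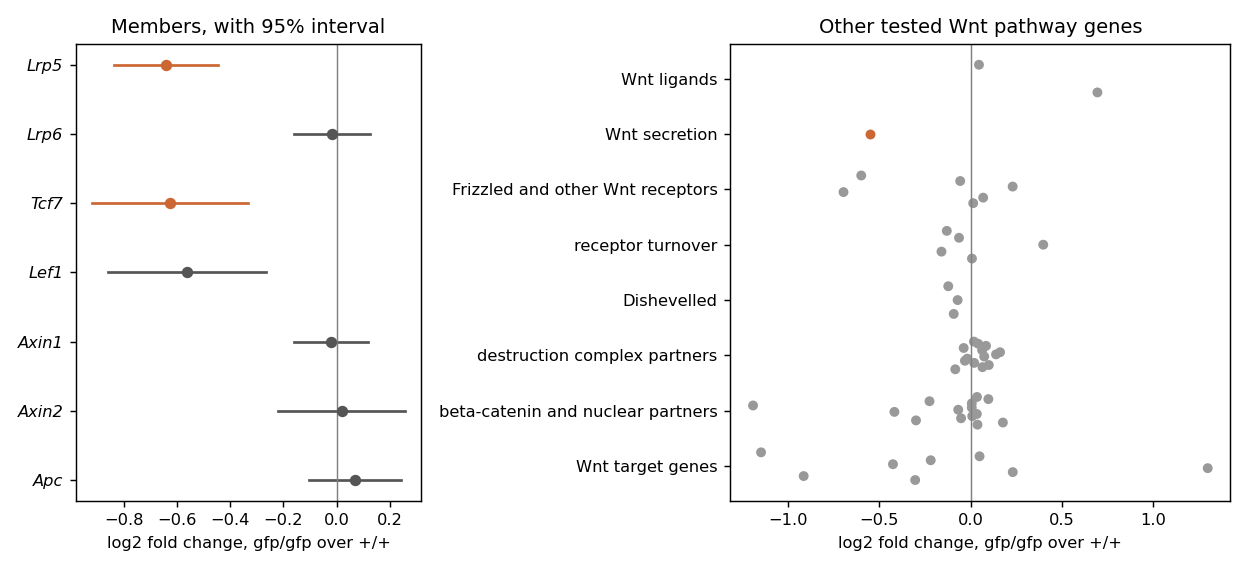
Log2 fold change of *Ncr1gfp/gfp* over *Ncr1+/+* (horizontal axes) for the 7 tested members, with 95% intervals as lines, and for the 53 other tested Wnt pathway genes by role, 1 point per gene, with called genes in orange. *Lrp5* and *Tcf7* are the called members, at -0.64 and -0.63, and *Wls*, at -0.55, is the called gene among the others.

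Genes linked to TCF-1 in lymphocytes formed a further list of 14, of which 11 were tested. Of these, 2 were called lower, 0 higher and 9 were not called, and 9 of 11 (81.8%) had a negative log2 fold change, with a median of -0.17. Over all tested genes, 0.532% were called lower and 49.3% had a negative value. The list was chosen with earlier results of these data known, so its counts carry no further weight. *Il7r*, the IL-7 receptor α chain, was at 84.6 ± 33.4 CPM in *Ncr1gfp/gfp* and 166 ± 31.7 CPM in *Ncr1+/+* ILC1s (SD). It fell by 0.97 on the log2 scale (SE 0.19, edgeR quasi-likelihood test, Benjamini-Hochberg adjusted p = 0.00773), a difference that was known when the list was drawn up. Without *Ncr1gfp/gfp* replicates 3 and 4, which had the highest *Cd3e*, *Il7r* was not called, at -1.01 (edgeR quasi-likelihood test, Benjamini-Hochberg adjusted p = 0.054). It was also not called without *Ncr1gfp/gfp* replicate 3 and *Ncr1+/+* replicate 1, which were high in hepatocyte markers, at -0.92 (edgeR quasi-likelihood test, Benjamini-Hochberg adjusted p = 0.055). *Kit*, the stem cell factor receptor, was at 18.9 ± 5.83 and 32.0 ± 7.13 CPM (SD). It fell by 0.76 on the log2 scale (SE 0.18, edgeR quasi-likelihood test, Benjamini-Hochberg adjusted p = 0.029).

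The call of *Kit* was kept without *Ncr1gfp/gfp* replicate 1 or *Ncr1+/+* replicate 2 and was lost without any of the other 8 libraries, over a log2 range of -0.96 to -0.65. The chromatin organizer *Satb1* was at 199 ± 26.6 and 249 ± 30.7 CPM (SD), with a log2 fold change of -0.33 that was not called (edgeR quasi-likelihood test, adjusted p = 0.08). *Gata3*, a transcription factor shared by innate lymphoid and T cells, was at 158 ± 16.7 and 171 ± 9.46 CPM (SD) and was not called.

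T cells express *Tcf7* and *Lef1*, so T cell markers are given beside them. The T cell marker sum was 665 to 845 CPM in *Ncr1gfp/gfp* and 512 to 614 CPM in *Ncr1+/+* libraries, without overlap and most of it from *Cd3g*. Without *Cd3g*, but with *Cd28*, it was 52 to 119 CPM and 59.8 to 71.5 CPM, with overlap. Of the 9 T cell markers, *Cd3e* and *Cd8a* were called higher, with log2 fold changes of 1.88 and 1.53, and *Cd28* was called lower, at -0.94. *Cd3g* was higher in every *Ncr1gfp/gfp* than in every *Ncr1+/+* library. Its log2 fold change of 0.45 was short of the fold for a call (edgeR quasi-likelihood test, adjusted p = 0.00169). *Cd3d*, at 1.04, overlapped and was not called (edgeR quasi-likelihood test, adjusted p = 0.0527). *Cd4*, at 0.25, was not called either.

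*Cd3e* was at 15.0, 9.05, 38.8, 30.2 and 12.7 CPM in *Ncr1gfp/gfp* replicates 1 to 5 and between 2.80 and 6.85 CPM in *Ncr1+/+* libraries. Its highest values were in *Ncr1gfp/gfp* replicates 3 and 4. The T cell genes *Cd5*, *Cd6* and *Cd8b1* did not pass the filter and were at most at 2.80, 1.06 and 0.841 CPM in any library, and *Cd4* was at most at 4.46 CPM. Without *Ncr1gfp/gfp* replicates 3 and 4, the log2 fold change was -0.72 for *Lrp5*, which was still called, and -0.47 for *Tcf7*, which was not. The part of T cell RNA in the *Tcf7* and *Lef1* values was not tested.

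**Figure D5:**
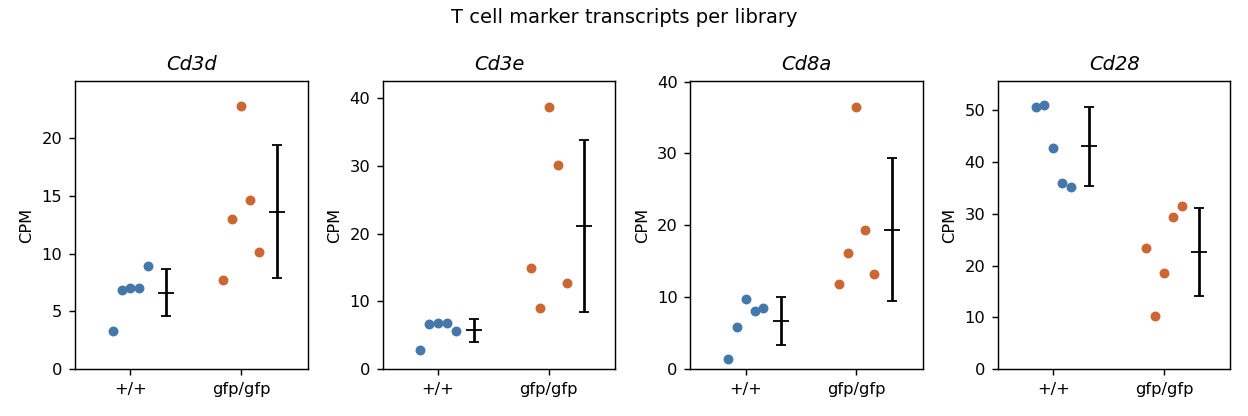
CPM of the T cell marker genes *Cd3d*, *Cd3e*, *Cd8a* and *Cd28* (vertical axes, each from 0) in *Ncr1+/+* (blue) and *Ncr1gfp/gfp* (orange) libraries, 1 point per library with the mean and SD (n = 5) in black. *Cd3e* and *Cd8a* are higher and *Cd28* is lower in every *Ncr1gfp/gfp* library than in every *Ncr1+/+* library.

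The NK cell marker sum was 210.4 to 310.1 CPM in *Ncr1gfp/gfp* and 157 to 197 CPM in *Ncr1+/+* libraries, without overlap. Of the 8 NK cell markers 6 were tested and 1, *Itgam*, was called higher, with a log2 fold change of 0.96, while *Klra4* had 0 counts in all libraries. Among the tested markers only *Itgam* was without overlap between the genotypes. *Eomes*, *Itga2*, *Klra8*, *Klra9* and *S1pr5* overlapped and were not called, with log2 fold changes of 0.52, 0.27, 0.27, 0.03 and -0.30. Of the tested markers, *S1pr5* alone had a negative value. The part of NK cell RNA in the members' values was not tested. Without the library of each genotype with the highest hepatocyte markers, *Tcf7* had a log2 fold change of -0.52 and was not called.

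To see which genes followed *Tcf7*, *Lef1* and *Axin2* from library to library, the genotype means were taken away and log2 CPM was correlated over the 10 libraries with 8254 genes. The libraries share depth and preparation, and the values are descriptions. *Tcf7* was closest to *Reep3*, *Map3k1* and *Zfp518b*, with Pearson correlations of 0.928, 0.921 and 0.919. *Lef1* was closest to *Stam2* and *Sspo*, at 0.935 and 0.911. *Axin2* was closest to *Brpf1*, *Pou2f1* and *Dcxr*, at 0.937, 0.934 and 0.923.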

How the data were processed

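Liver ILC1s were sorted from *Ncr1+/+* and *Ncr1gfp/gfp* mice, and 2 ng of RNA per library was amplified with SMART-Seq v4 and sequenced in single-read mode (51 cycles). After trimming, the authors aligned reads to mm10 with STAR, ran HTSeq with default parameters and deposited raw gene counts without normalization, with the total exon length of each gene. HTSeq skips multi-mapping reads by default. The table's coordinates name no build, and 1 of the 8 members starts where GRCm38 RefSeq places it.

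Samples were grouped by their labels, 5 per genotype. Total counts were between 15796253 and 22623133. Within genotypes, the 20 library pairs differed by 9.27 to 24.4 chi-square units per gene, beyond sampling noise, so each was counted once. Low genes were removed by filterByExpr, libraries scaled by TMM, and genotypes compared with edgeR 4.0.16 (quasi-likelihood test, R 4.3.3), with Benjamini-Hochberg adjustment over 11463 genes and genotype as the only term. DESeq2 1.42.0, other normalization, filters, fold thresholds, a replicate block and leaving out libraries were tried as alternatives. Levels per kilobase were compared within libraries by exact sign-flip permutation tests, with 0.5 added to each count. Scripts were tested on simulated data.

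The members and gene lists were chosen with earlier results of these data known. Besides the members, genes were named if called in the Wnt or TCF-1 linked lists, if among the 2 highest of a list, or if among the 3 most correlated with *Tcf7*, *Lef1* or *Axin2* (tested genes of at least 10 CPM); 1 gene that this rule names is not reported here. Other named genes (*Ctnnb1*, *Bcl9l*, *Tle1*, *Zbtb16*, *Gm10548* and markers) were picked after their values were seen or for a check. *Tcf7l2* had too few counts for the fit. The ILC1 marker *Zfp683* was not used here.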

Additional observations from a re-analysis of the deposited data

Results flagged for a closer look

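Among 38 groups of 5 libraries examined, 3 had a library far from the others by Dixon's criterion, where chance gives about 1.9. *Kit* was at 28.9 CPM in *Ncr1gfp/gfp* replicate 1, with the next library of that genotype at 18.2 CPM. The hepatocyte marker sum was 59.2 CPM in *Ncr1gfp/gfp* replicate 3, with the next library at 5.41 CPM. The same sum was 32.1 CPM in *Ncr1+/+* replicate 1, with the next library at 5.90 CPM. In the hepatocyte-high libraries *Lrp5* lay within the range of the other libraries of its genotype, and so did *Lef1* in *Ncr1gfp/gfp* replicate 3, while *Lef1* was lowest of its genotype in *Ncr1+/+* replicate 1, at 19.8 CPM. *Axin2* was lowest of its genotype in both hepatocyte-high libraries, at 32.1 CPM in *Ncr1gfp/gfp* replicate 3 and 27.6 CPM in *Ncr1+/+* replicate 1. *Tcf7* was highest of its genotype in *Ncr1+/+* replicate 1, at 97.3 CPM. The part of hepatocyte RNA in these values was not tested.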

How the results depend on the processing

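*Lrp5* kept its call in 18 of 18 alternatives, *Wls* in 17 and *Tcf7* in 10, and *Lrp5*, *Tcf7* and *Lef1* had negative log2 fold changes in the reported fit and all 17 alternatives that give one. Over these 18 fits *Lrp6* and *Axin1* were negative in 17, *Axin2* in 3 and *Apc* in 1. Of the alternatives, that with no fold threshold only relaxes the rule on the reported fit, so a called gene cannot lose its call there. The 84 genes called became 155 with no fold threshold, 131 with no filter on low counts and 128 with DESeq2, and 60 to 98 with each library left out. With each library left out, 1 to 3 members, 0 to 1 genes of the Wnt lists and 1 to 2 TCF-1 linked genes were called. Leaving out *Ncr1gfp/gfp* replicate 3 and *Ncr1+/+* replicate 1, high in hepatocyte markers, gave 1 member called (*Lrp5*) and 1 TCF-1 linked gene (*Zbtb16*, not called with all libraries), while *Il7r* and *Kit* were not called. Leaving out *Ncr1gfp/gfp* replicates 3 and 4, highest in *Cd3e*, gave 1 member (*Lrp5*) and 0 TCF-1 linked genes called by edgeR. Both leave-outs, and every setting for *Wls*, *Il7r* and *Kit*, were chosen after seeing the data, and both test fewer samples. The order of levels kept 6 of 7 differing neighbours, or 5 without division by length, when *Apc*, *Lrp6* and *Axin1* led, and 7 without *Ncr1gfp/gfp* replicate 4. With a replicate block, 3 members (*Lef1* added), 87 genes in all, 1 Wnt gene and 2 TCF-1 linked genes were called. Over all tested genes, same-numbered libraries did not deviate together (correlations -0.03 to 0.05, and for 1 of the 5 numbers the highest was with its own number). These correlations cannot exclude that a single gene follows the numbers. *Tcf7* was highest in replicate 1 and lowest in replicate 4 of both genotypes. Its log2 fold change was -0.64 (SE 0.09) with the block and -0.63 (SE 0.14) without. The depth limits what can be said of *Tcf7l2*.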
